A study of Mus musculus with 4 samples.

Results

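Placental and trophoblast effector genes are taken here as genes that act in the trophoblast, the lineage that builds the fetal part of the placenta. Genes known mainly for setting that lineage up were kept apart, while regulators of transcription such as Esx1 and Cited1 were included. The 6 members considered here are Plac1, Plet1, Wnt7b, Esx1, Cdh3 and Cited1, among 18193 genes named on the array. They were taken as all probe sets annotated to 1 of these symbols alone, which gave 10 probe sets. All 6 genes passed the filter on dim signals, through 8 of the 10 probe sets.

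Trophoblast is the first lineage to separate from the embryo proper, and embryonic stem (ES) cells, which derive from the inner cell mass, normally do not contribute to it. Plac1 encodes a secreted or membrane-associated placental protein, and Plet1 a glycolipid-anchored surface protein of trophoblast progenitors. Wnt7b is a secreted Wnt ligand of the chorion needed for its fusion with the allantois, and Cdh3 encodes P-cadherin, the placental adhesion molecule. Esx1 is a paired-like homeobox gene of labyrinth trophoblast, and Cited1 a transcriptional coactivator that is also required in the placenta.

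Mouse E14.1 ES cells were grown in 4 cultures, each read by 1 Affymetrix array from biotin-labelled total RNA. The heterozygous cells (flox/-, line HET18) carried 1 floxed Sall4 allele beside a lost one, and the cells labelled null (delta/-, line KO1; null-labelled below) had the floxed allele deleted too. Both lines were cultured on gelatin alone, with no feeders, and on blasticidin-resistant fibroblasts as feeders. LIF and blasticidin were in every medium, and an IRES-linked resistance gene inserted at Oct3/4 selected for cells expressing Oct3/4. There was no culture with both Sall4 alleles intact, each genotype was 1 named line, and there were no replicate arrays, so line and genotype cannot be told apart.

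The values are linear MAS5 signals, which compare a probe set with itself across arrays and not with other probe sets. The median signal of all probe sets and arrays was 17.1. Of the 24 values of the members, each read by its brightest probe set, 21 lay above it. Sall4 itself read 1126.5 in heterozygous cells and 1670.5 in null-labelled cells on gelatin, and 780.8 and 1452.4 on feeders, so its signal was higher on both arrays labelled null. Where its probe set lies relative to the deleted part was not known, and every direction between genotypes rests on the labels. The ES cell markers Pou5f1, Nanog, Sox2, Zfp42, Dppa5a, Tdgf1, Fgf4 and Utf1 were all above the median signal on each array, with summed signals between 16145.7 and 20268.9. Pou5f1, which encodes Oct3/4, read 977.0 to 1284.2.

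Of 10 defining trophoblast markers 7 were measured, and they did not behave alike. Tpbpa, a marker of the spongiotrophoblast, read 3.7 to 4.9, and Elf5, a transcription factor of trophoblast stem cells, 1.9 to 13.7, below the median signal on every array. Eomes, at 21.2 to 59.0, and the keratin gene Krt7, at 21.0 to 45.7, lay above it on every array. Hand1 and Gata3 lay above it on both arrays on gelatin, at 33.1 and 26.4 and at 23.7 and 49.2. The 7 summed to 171.3 and 243.5 on gelatin and to 130.1 and 81.1 on feeders, in heterozygous cells and null-labelled cells respectively. Cdx2 read 82.2 on the null-labelled array on gelatin and 17.1 or less on the others. The part of trophoblast cells in the members' signals was not tested.

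**Figure D1:**
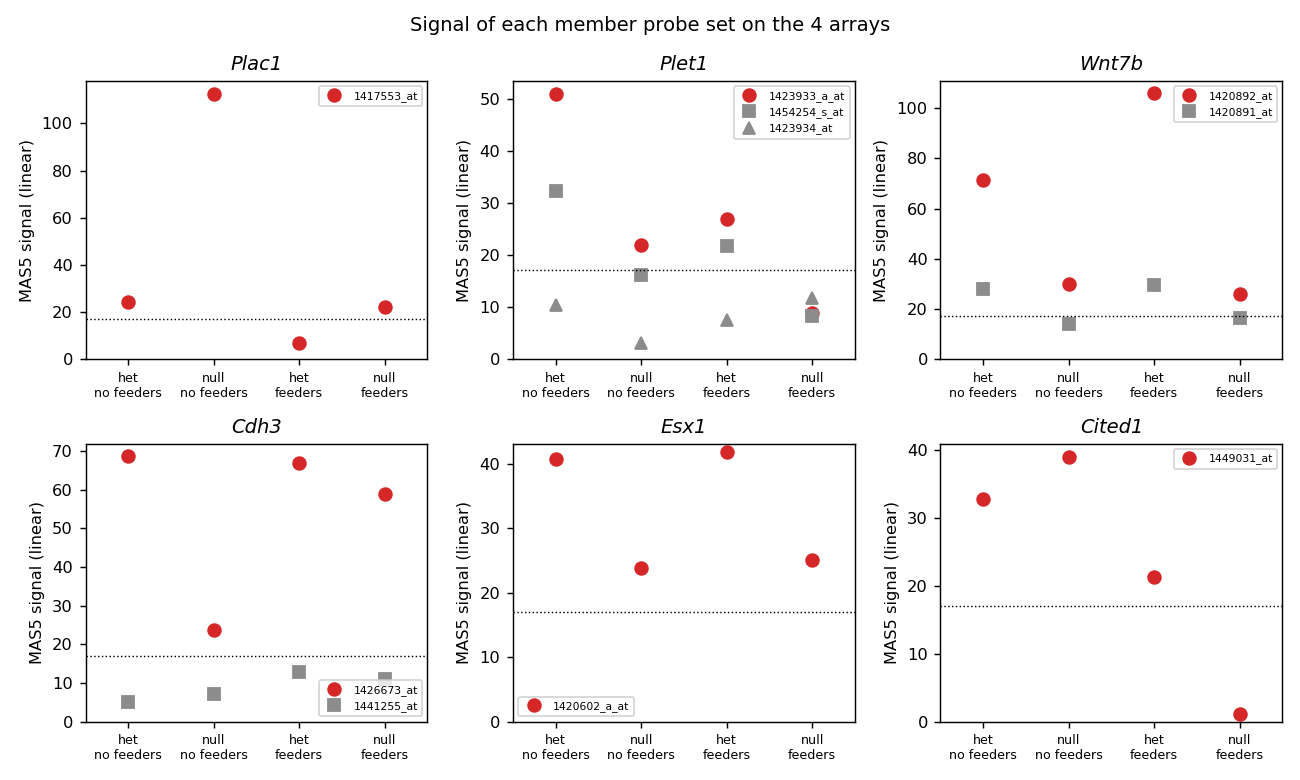
Linear MAS5 signal of every probe set of the 6 members on the 4 arrays, 1 point per array, with the gene's brightest probe set as red circles, other probe sets in grey and the median signal of 17.1 as a dotted line. Plac1 stands at 112.7 on the array labelled null on gelatin, Wnt7b is high on both heterozygous arrays, and Cited1 drops to 1.2 on the array labelled null with feeders.

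The first comparison asked how the members differed between null-labelled cells and heterozygous cells. By the brightest probe set of each, Plac1 was higher and Plet1 and Wnt7b were lower by at least 2-fold on the arrays labelled null in both feeder conditions. Esx1 was lower by a smaller amount in both. Cdh3 was lower on gelatin, and Cited1 was lower on feeders.

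Plac1 was read by 1 probe set (1417553_at). Its signal was 24.1 in heterozygous cells and 112.7 in null-labelled cells on gelatin, and 6.6 and 22.0 on feeders. Both arrays labelled null were higher than the heterozygous array of the same condition, but the array labelled null on feeders lay below the heterozygous array on gelatin, so the genotypes overlapped across conditions. The ratio was 4.09-fold on gelatin and 2.38-fold on feeders, computed as all ratios here on the signal plus an offset of 4.6, which draws ratios of weak signals towards 1.

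Wnt7b, by its brighter probe set (1420892_at), read 71.4 and 106.2 on the heterozygous arrays without and with feeders. On the arrays labelled null it read 29.8 and 25.8. The ratio was 2.21-fold lower in null-labelled cells on gelatin and 3.64-fold lower on feeders. The second probe set (1420891_at) read 28.1 and 29.6 in heterozygous cells against 14.0 and 16.5, with the same order and ratios of 1.76-fold and 1.62-fold.

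Plet1 had 3 probe sets. The brightest (1423933_a_at), which can bind several transcripts of the gene, read 51.1 in heterozygous cells and 22.0 in null-labelled cells on gelatin. On feeders it read 27.0 and 8.9. These pairs were 2.09-fold and 2.34-fold apart. A second probe set (1454254_s_at), of a type that may also bind related transcripts, gave 32.4 and 16.2 on gelatin and 21.8 and 8.3 on feeders. That is the same order, with ratios of 1.78-fold and 2.05-fold. The third (1423934_at) did not pass the filter. It read 10.4 and 3.0 on gelatin but 7.5 and 11.8 on feeders, so it did not share the direction of the others on feeders.

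Esx1, by 1 probe set (1420602_a_at), read 40.8 and 23.9 on gelatin and 41.9 and 25.1 on feeders. It was lower in null-labelled cells by 1.59-fold on gelatin and 1.57-fold on feeders. Thus its difference was nearly the same size in both conditions and below the 2-fold rule.

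Cdh3, by its brighter probe set (1426673_at), read 68.7 in heterozygous cells and 23.6 in null-labelled cells on gelatin, and 66.8 and 58.8 on feeders. One array, labelled null on gelatin, stood below the other 3, at a ratio of 2.60-fold against 1.13-fold on feeders. The dimmer probe set (1441255_at) did not pass the filter and read 5.0 and 7.2 on gelatin, the opposite order, and 12.8 and 11.1 on feeders.

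Cited1, by 1 probe set (1449031_at), read 32.8 and 39.1 on gelatin and 21.3 and 1.2 on feeders. The array labelled null on feeders lay below the other 3. The ratio was 1.17-fold higher in null-labelled cells on gelatin and 4.47-fold lower on feeders. The files hold no detection calls, so a signal as low as 1.2 was not known to be above background, and the size of this ratio depends on the offset.

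A size rule asked for 2-fold or more with 1 sign in both feeder conditions, where the brighter array of a pair had to exceed the median signal. By it 1 of the 6 members was higher in null-labelled cells, beside 0.328% of 12485 genes tested. A further 2 of 6, Plet1 and Wnt7b, were lower, beside 0.785% of genes tested. This rule is a size with no test, and with an offset at the median signal, or at 3-fold, 0 of 6 met it. With the probe sets of a gene averaged only Plac1 met it, and with the dim-signal filter at the 60th percentile only Wnt7b. Without feeders 1 member was at least 2-fold higher and 3 were lower, beside 3.78% and 2.97% of genes, and on feeders 1 was higher and 3 lower, beside 1.34% and 2.10%.

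The genotype term of an additive limma model over all 4 arrays gave log2 differences (labelled null minus heterozygous) that did not pass for any member. The model has 1 residual degree of freedom, namely the difference between the genotype effects of both conditions. The difference was 1.64 for Plac1 (SE 0.30, adjusted p = 0.165 over all genes) and -1.50 for Wnt7b (SE 0.26, adjusted p = 0.152). Plet1 stood at -1.15 (SE 0.27, adjusted p = 0.226) and Cited1 at -0.97 (SE 0.58, adjusted p = 0.566). Cdh3 had a difference of -0.77 (SE 0.33) and Esx1 of -0.66 (SE 0.24), with adjusted p-values of 0.425 and 0.372. The count was 0 of 6 by limma over all genes, beside 0.032% of genes tested. At an unadjusted p under 0.05, 1 member was higher and 3 were lower, beside 5.80% and 6.50% of genes.

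**Figure D2:**
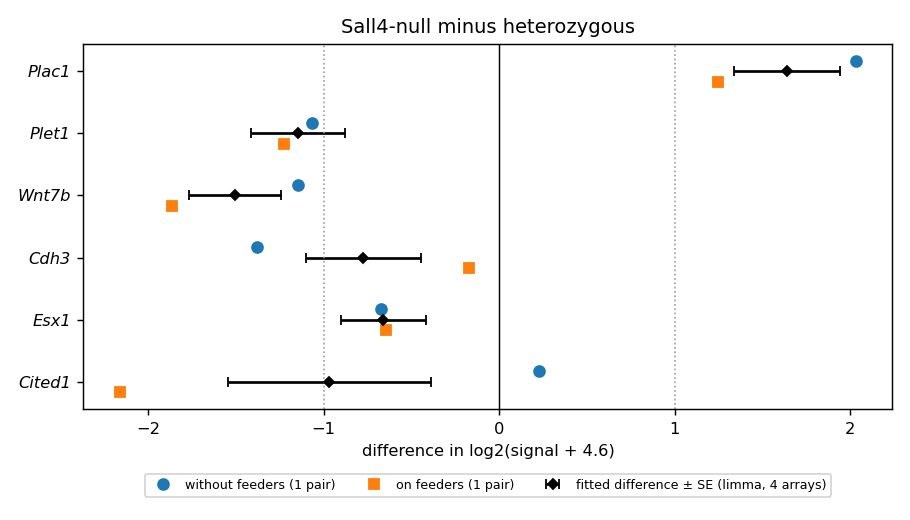
Differences between null-labelled cells and heterozygous cells in log2(signal + 4.6) for the 6 members, with 1 pair of arrays per circle (on gelatin) or square (on feeders), the limma fit with its SE as a black diamond, and 2-fold as dotted lines. Plac1 lies at 2.03 and 1.25, Wnt7b at -1.14 and -1.87, and the circle and square of Esx1 nearly coincide, while those of Cited1 and Cdh3 are far apart.

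The members did not move as a block. Their median difference was -0.87 on gelatin and -0.94 on feeders, beside 0.00 and 0.01 for all genes tested. In 5 of 6 the fitted difference was below 0, with Plac1 as the exception. The difference between conditions (the log2 difference on feeders minus that on gelatin) was 1.21 for Cdh3 and -2.38 for Cited1. It was -0.78 for Plac1, -0.72 for Wnt7b, -0.16 for Plet1 and 0.02 for Esx1. With 1 array per group it has no test, and among genes above the median signal on at least 1 array, 3.13% of all tested had such a value of at least 1 and 4.75% of at most -1, which on this scale is 2-fold.

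Summed fibroblast marker signals also differed between genotypes. Over 16 markers the sums were 268.1 in heterozygous cells and 893.8 in null-labelled cells on gelatin, and 11121.1 and 15561.3 on feeders. The markers did not all agree on gelatin, where Col1a2 (38.4 and 36.2) and Thy1 (20.8 and 15.7) were lower in null-labelled cells. Col3a1 (19.2 and 243.7) and Col5a2 (44.3 and 215.2) added most to the rise of the sum there. By ratio, Col1a1 (1.5 and 36.0) and Twist2 (1.7 and 26.3) rose more than Col5a2. On gelatin 7 of the 16 lay above the median signal in heterozygous cells and 13 in null-labelled cells, and on feeders all 16 did. Col1a1, Lum, Postn and Twist2 read 1.3 to 1.7 in heterozygous cells on gelatin, signals not known to be above background. The part of fibroblast RNA in the members' differences was not tested. Cdh3 is also expressed in basal epithelium, for which 6 markers were read, with sums of 257.0 and 143.9 on gelatin and 86.6 and 74.0 on feeders. Krt5 read 25.1 and 9.9 on gelatin and 12.1 and 6.6 on feeders, lower in null-labelled cells in both conditions. On gelatin Krt14 (6.7 and 8.6) and Trp63 (5.1 and 9.7) had the opposite order, while Sfn, Col17a1 and Krt15 had that of Krt5. On feeders Trp63 (6.0 and 8.0), Col17a1 (1.2 and 4.7) and Krt15 (0.4 and 0.5) had the opposite order. Sfn and Krt14 had that of Krt5 there. Krt15 read at most 0.8, Krt14 1.7 to 8.6 and Trp63 5.1 to 9.7, and only Sfn, which is not restricted to that tissue, was above the median signal on all 4 arrays. Col17a1 read 0.7 to 4.7. The part of such cells in the Cdh3 difference was not tested.

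The second comparison asked what feeders changed. Plac1 was the member that changed: it fell on feeders from 24.1 to 6.6 in heterozygous cells and from 112.7 to 22.0 in null-labelled cells. Cited1 and Plet1 were also lower on feeders in both genotypes, without passing the test. Esx1 read nearly the same on feeders and on gelatin. These comparisons use the same 4 arrays as the comparison of genotypes, so they are not independent of it. Signals come from whole cultures, where fewer cells of a type and less RNA per cell cannot be told apart.

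The feeder term of the model put Plac1 at -1.75 on the log2 scale (adjusted p = 0.0370 over all genes, SE 0.30), with ratios of 2.56-fold and 4.41-fold lower in heterozygous cells and null-labelled cells. It was 1 of 6 members past the limma threshold, beside 4.77% of genes tested. By the size rule it was again 1 of 6 that was lower on feeders in both genotypes, beside 0.529%, and 0 of 6 were higher, beside 3.96%. The call was lost without the filter on dim genes (adjusted p = 0.106), without the variance trend (adjusted p = 0.0948) and with the offset at the median signal (adjusted p = 0.0610). With the filter at the 60th percentile Plac1 was not tested.

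Cited1 fell short of the threshold at -1.72 (SE 0.58, adjusted p = 0.166). Its ratio was 1.44-fold lower on feeders in heterozygous cells and 7.53-fold in null-labelled cells, so most of the fitted value came from the single array at 1.2. Plet1 stood at -0.90 (SE 0.27, adjusted p = 0.136), with 1.76-fold and 1.97-fold lower signals on feeders. Its dimmest probe set was 2.16-fold higher on feeders in null-labelled cells, and with its probe sets averaged the difference was -0.36. Cdh3 had a difference of 0.57 (SE 0.33, adjusted p = 0.372), with 1.03-fold in heterozygous cells and 2.25-fold higher on feeders in null-labelled cells. Wnt7b (0.18, SE 0.26, adjusted p = 0.728) was 1.46-fold higher in heterozygous cells and 1.13-fold lower in null-labelled cells. Esx1 had a difference of 0.05 (SE 0.24, adjusted p = 0.933), whose sign turned under quantile normalization and median centring. Between single pairs, in heterozygous cells 1 member was at least 2-fold lower on feeders and 0 were higher, beside 1.64% and 7.80% of genes, and in null-labelled cells 2 were lower and 1 was higher, beside 2.31% and 6.30%.

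**Figure D3:**
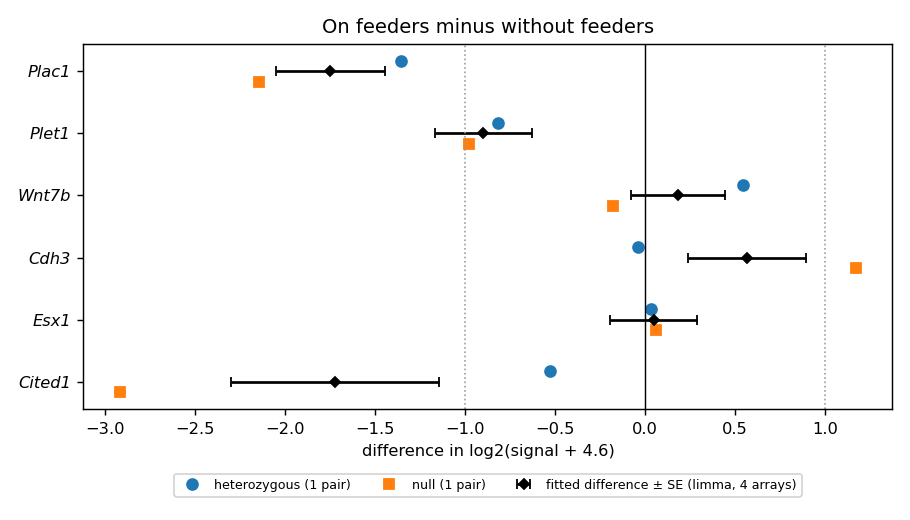
Differences between cultures on feeders and on gelatin in log2(signal + 4.6) for the 6 members, with 1 pair of arrays per circle (heterozygous) or square (labelled null), the limma fit with its SE as a black diamond, and 2-fold as dotted lines. Plac1 lies below -1 in both genotypes, Cited1 and Cdh3 pass a 2-fold difference in null-labelled cells alone, and Esx1 lies at 0.03 and 0.06.

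Markers of fibroblasts, the feeder cell type, were high on both feeder arrays. Signals on those arrays thus include feeder RNA, and its part in the rise of any gene on feeders was not tested. All 16 fibroblast markers rose by limma over all genes, with a median log2 difference of 4.71. Against that, the members had a median of -0.43, beside 0.03 for all genes tested. Summed ES cell marker signals were 19320.5 and 16145.7 on gelatin and 20268.9 and 18931.3 on feeders, in heterozygous cells and null-labelled cells, with large shares from bright probe sets such as that of Dppa5a. In heterozygous cells Pou5f1 read 1284.2 on gelatin and 1112.1 on feeders, Sox2 2660.6 and 2554.2, and Utf1 1131.9 and 926.4, lower on feeders. In the same cells Nanog (1744.8 and 2068.8), Zfp42, Dppa5a, Tdgf1 and Fgf4 were higher on feeders. In null-labelled cells each of these ES cell markers was higher on feeders, with Pou5f1 at 977.0 and 1187.4.

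The bases upstream of the start sites are shown for members that differed in both conditions, to set their letters side by side. Sequences are from RefSeq (GRCm38.p6), in a table that held starts for 4 of the 6 members, with 2 for Plac1 and 3 for Cited1. Each line gives the 250 bases before a start, 5′ to 3′ on the gene's strand, for the member that was higher in null-labelled cells (Plac1) and for 2 that were lower in both conditions (Plet1 and Esx1). Capitals mark matches to the motifs named after them.
Plac1, first start, chrX:53240111-53240360, minus strand: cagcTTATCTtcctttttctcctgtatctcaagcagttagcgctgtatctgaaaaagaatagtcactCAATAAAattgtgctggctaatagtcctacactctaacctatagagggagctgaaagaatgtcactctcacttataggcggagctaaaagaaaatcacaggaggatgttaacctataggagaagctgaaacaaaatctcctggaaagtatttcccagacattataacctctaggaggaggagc
Plac1, second start, chrX:53114406-53114655, minus strand: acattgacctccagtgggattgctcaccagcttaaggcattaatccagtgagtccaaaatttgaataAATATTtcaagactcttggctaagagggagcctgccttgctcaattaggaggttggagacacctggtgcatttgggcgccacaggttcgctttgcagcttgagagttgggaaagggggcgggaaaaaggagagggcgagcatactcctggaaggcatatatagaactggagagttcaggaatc
Plet1, chr9:50494275-50494524, plus strand: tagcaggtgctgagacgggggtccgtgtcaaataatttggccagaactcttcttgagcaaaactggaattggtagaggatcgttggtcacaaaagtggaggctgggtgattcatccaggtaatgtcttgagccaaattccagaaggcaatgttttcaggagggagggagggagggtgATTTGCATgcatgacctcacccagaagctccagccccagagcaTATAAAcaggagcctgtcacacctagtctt
Esx1, chrX:137120327-137120576, minus strand: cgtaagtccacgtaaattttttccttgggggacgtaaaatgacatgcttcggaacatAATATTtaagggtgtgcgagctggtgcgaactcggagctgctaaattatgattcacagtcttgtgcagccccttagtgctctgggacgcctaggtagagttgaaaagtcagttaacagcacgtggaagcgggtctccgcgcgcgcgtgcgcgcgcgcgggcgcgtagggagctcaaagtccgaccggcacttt

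The search covered 8 motifs on both strands. The Plet1 window held the octamer of POU factors such as Oct3/4 (ATGCAAAT) on the reverse strand, 73 to 66 bases before the start, and a TATA box (TATAAA) 30 to 25 bases before it. Of 32851 windows of the same length, 1.60% held the octamer and 12.4% a TATA box. An AT-rich word of the kind bound by SALL4 (AATATT) stood in the window of the second Plac1 start, 183 to 178 bases before it, and in that of Esx1, 193 to 188 bases before it, against 6.17% of all windows. It was thus found both at a member that was higher and at a member that was lower. The first Plac1 start had a match to the GATA motif (AGATAA), which stood in 9.99% of windows. It also had a match to the CDX motif (TTTATNG), which stood in 9.81% of windows. Of the 3 starts listed for Cited1, 2 had the letters TATAAA, 13 to 8 bases before the first and 115 to 110 bases before the second. They stood at other distances than in the Plet1 window. A CDX match overlapped them at the first start, and the window of the third held an AP-2 match (GCCNNNGGC, in 13.7% of windows). The TEAD motif (GGAATG), in 12.6% of all windows, stood in no window of a member. The same held for the TCF/LEF motif (CTTTGAT), in 3.21% of all windows. A match is only a description of these letters. Plac1, Esx1 and Cited1 lie on the X chromosome, and their differences between genotypes did not share 1 direction.

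The GC content of the windows ran from 40.4% at the first Plac1 start and 48.8% at the second to 50.0% for Plet1, 54.0% for Esx1 and 58.0%, 57.2% and 65.2% for the 3 starts of Cited1, beside a median of 52.4% for all windows. Esx1 had 24 CpG dinucleotides there, Plet1 3, Plac1 2 and 4, and Cited1 13, 9 and 30, beside a median of 6.

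Genes with patterns most like the members over the 4 arrays were found by the Euclidean distance between log2 values centred on each gene's mean. For Plac1 they were the imprinted gene Peg3, at a distance of 0.57, and Aldh1a3, a retinaldehyde dehydrogenase, at 0.60, where Plac1's own distance from a flat pattern was 2.43. Peg3 read 435.4 and 2346.1 on gelatin and 276.4 and 640.9 on feeders, and so was highest on the same array as Plac1. For Cited1 they were Sct, which encodes the hormone secretin, at 0.60, and the phosphatase gene Dusp5 at 0.62. Dusp5 read 117.0 and 242.5 on gelatin and 128.4 and 24.7 on feeders, with its lowest value on the array where Cited1 was lowest.

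The other members had closer neighbours, but they also lay nearer to a flat pattern themselves. Their own distances from it were 1.46 for Plet1, 1.56 for Wnt7b, 1.13 for Cdh3 and 0.66 for Esx1. Plet1 was matched by Cubn, which encodes the endocytic receptor cubilin, at 0.10, and Trim54 at 0.13. Wnt7b was matched by 4930447C04Rik at 0.11 and Sp110 at 0.14, Cdh3 by Slc5a4b and Fkbp11 at 0.12 each, and Esx1 by Nrg1 and Prss29 at 0.05 each. Prss29 read 16.2 and 7.9 on gelatin and 16.5 and 8.5 on feeders, below the median signal on every array. A distance over 4 arrays, searched among 12485 genes, is a description.

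Other trophoblast and placental genes were read from lists, without a test of the members against them. Among 13 tested transcription factors of trophoblast, of 17 listed, 0 changed between genotypes by limma over all genes, while 3 had an unadjusted p under 0.05, Cdx2 and Gata3 higher and Tfap2c lower, beside 5.80% and 6.50% of all genes. None met the size rule by genotype. Their median genotype difference was 0.23 on gelatin and -0.32 on feeders. Cdx2, which specifies trophectoderm, had a fitted difference of 1.25 (SE 0.45, adjusted p = 0.363), with signals of 17.1 and 82.2 on gelatin and 2.1 and 4.9 on feeders. Like Plac1 it was highest on the array labelled null on gelatin. Gata3 read 23.7 and 49.2 on gelatin and 4.0 and 9.2 on feeders. Eomes, a T-box factor of trophoblast stem cells, read 42.5 and 42.1 on gelatin and 59.0 and 21.2 on feeders, and Tfap2c, an AP-2 factor, 633.8 and 347.0 and 723.5 and 577.9.

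Among 18 tested placental and trophoblast products, of 33 listed, 0 changed between genotypes by limma over all genes, with 7 at an unadjusted p under 0.05, 3 higher and 4 lower, beside the same 5.80% and 6.50%. Rhox9 and Rhox6, homeobox genes expressed in placenta, met the size rule on the lower side, as 2 of 18 beside 0.785% of all genes. Rhox9 read 282.8 and 97.6 on gelatin and 317.9 and 109.3 on feeders, the order seen for Wnt7b, Plet1 and Esx1. The matrix protease gene Mmp9 read 23.2 and 67.3 on gelatin and 13.4 and 18.4 on feeders, and the cell cycle inhibitor gene Cdkn1c 37.1 and 78.9 and 38.5 and 58.0. The list's median was 0.19 on gelatin and -0.28 on feeders.

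By feeders 4.77% of all genes tested changed by limma. Of the transcription factors 3 of 13 fell by limma over all genes, namely Cdx2 (-2.44, SE 0.45), Gata3 (-1.84, SE 0.31) and Id2, an inhibitor of helix-loop-helix factors (-1.54, SE 0.24). Their adjusted p-values were 0.0430, 0.0341 and 0.0277 by limma. Of the products 7 of 18 changed by limma, beside the same 4.77%, Krt8, Krt18, Krt19 and Phlda2 falling and Adm, Igf2 and Plac8 rising. Krt8, a keratin of simple epithelia, went from 847.1 to 128.1 in heterozygous cells and from 932.8 to 106.6 in null-labelled cells. Adm, which encodes the peptide adrenomedullin, went from 21.8 to 203.5 and from 29.9 to 164.2. Plac8 shares its prefix with Plac1 but read 50.0 and 47.2 on gelatin and 121.6 and 130.3 on feeders, the opposite of Plac1. The part of feeder RNA in the rises of Adm, Igf2 and Plac8 was not tested.

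**Figure D4:**
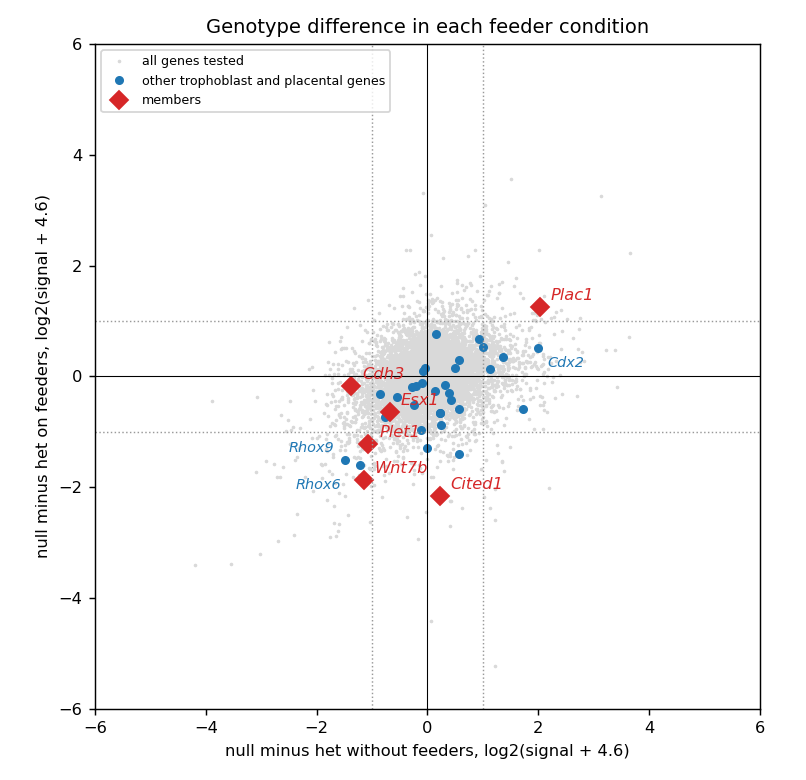
Difference between null-labelled cells and heterozygous cells in log2(signal + 4.6) on gelatin (horizontal) and on feeders (vertical) for 12485 tested genes (grey), 31 other trophoblast and placental genes (blue) and the 6 members (red), with 2-fold as dotted lines. Plac1 is at the upper right, Plet1 and Wnt7b at the lower left with Rhox6 and Rhox9, Cited1 is low on the vertical axis alone and Cdh3 low on the horizontal axis alone.

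Genes that act with the members were read from lists by role. Among Wnt ligands, 7 of 18 listed besides Wnt7b were tested, and 0 changed between genotypes by limma over all genes. Only 1, Wnt5a, had an unadjusted p under 0.05 and was higher, beside 5.80% of all genes. Wnt5a read 8.9 and 40.9 on gelatin and 84.3 and 117.9 on feeders, and it rose on feeders (2.07, SE 0.35, adjusted p = 0.0334 by limma). Wnt9a read 13.6 and 46.1 on gelatin and 23.1 and 28.5 on feeders, and Wnt4 31.6 and 73.8 and 25.6 and 19.7. Wnt7a, the closest relative of Wnt7b, read 6.7 and 6.1 on gelatin and 12.6 and 21.7 on feeders. The ligands' median genotype difference was 0.26 on gelatin and 0.26 on feeders, above 0, where Wnt7b lay at -1.14 and -1.87.

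Of 13 tested Wnt receptor genes 0 changed between genotypes by limma over all genes. An unadjusted p under 0.05 was seen for 2, Fzd2 and Fzd3, both higher, beside 5.80% of all genes. Fzd2 read 76.4 and 170.7 on gelatin and 78.1 and 134.7 on feeders. Fzd9 read 19.9 and 1.0 on gelatin and 13.8 and 15.7 on feeders, and Adgra2, whose product helps WNT7 ligands signal, 18.4 and 91.4 and 116.5 and 88.8. Fzd5, a receptor that acts in the labyrinth of the placenta, read 228.5 and 178.8 on gelatin and 237.6 and 194.6 on feeders (fitted difference -0.31, SE 0.16, adjusted p = 0.508 by limma). On feeders Fzd1 and Reck, which encodes the partner of Adgra2 in WNT7 signalling, rose, as 2 of 13 by limma beside 4.77% of all genes. Reck went from 88.7 to 199.8 in cultures of heterozygous cells and from 103.0 to 209.7 in those of null-labelled cells. The part of feeder RNA in the rises of Fzd1, Reck and Wnt5a was not tested.

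Among 10 tested cadherins and catenins 0 changed between genotypes by limma over all genes, and 4 had an unadjusted p under 0.05. Cdh2, which encodes N-cadherin, Cdh11 and Cdh6 were higher, and Cdh1, which encodes E-cadherin, was lower, beside 5.80% and 6.50% of all genes. Cdh2 read 123.9 and 456.1 on gelatin and 83.4 and 153.0 on feeders, a fitted difference of 1.34 (SE 0.27, adjusted p = 0.182). Cdh1 read 1384.2 and 751.6 on gelatin and 996.9 and 807.1 on feeders, so like Cdh3 it differed more in the pair on gelatin. Ctnnb1, the β-catenin gene, read 3486.9 and 3731.9 on gelatin and 3254.8 and 3572.1 on feeders. Cdh11, a cadherin of mesenchyme, rose on feeders (5.10, SE 0.23, adjusted p = 8.88e-04 by limma), the 1 of 10 that changed, beside 4.77% of all genes. The part of feeder RNA in the rise of Cdh11 was not tested.

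In the CITED list, 7 of 8 genes were tested and 0 changed between genotypes by limma over all genes. Tfap2c alone had an unadjusted p under 0.05 and was lower, beside 6.50% of all genes. Cited2, a paralogue of Cited1, read 758.3 and 1575.4 on gelatin and 586.1 and 408.4 on feeders, so it too was higher in null-labelled cells on gelatin and lower on feeders. Cited4 read 14.0 and 13.1 on gelatin and 18.1 and 13.3 on feeders. Ep300, the histone acetyltransferase to which CITED proteins bind, read 438.9 and 426.3 on gelatin and 380.3 and 360.6 on feeders, and Smad4, whose activity CITED1 is known to modulate, 735.5 and 1035.4 and 835.0 and 909.3.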

How the data were processed

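RNA from 4 cultures was read by 1 array each, with 1 array per group. The values are linear MAS5 array intensity signals as the authors deposited them, with MAS5 named, without a version, in the submitters' processing notes. The mean after trimming 2% at each end was 100 on every array, and no further scaling was applied. Of 45101 probe sets, 64 controls were left out. Of the rest, 34945 had 1 symbol and were used, 932 had several and 9160 were not listed in the annotation table. Signals became log2(signal + 4.6), where 4.6 is their 25th percentile. The brightest probe set on average stood for a gene, and genes under the 40th percentile of probe sets (a signal of 9.46) were left out, leaving 12485. limma 3.58.1 in R 4.3.3 (lmFit, eBayes with trend) fitted genotype and feeders, with 4.75 prior degrees of freedom added to 1 residual, two-sided tests, and Benjamini-Hochberg adjustment over all genes at 0.05. The fit was tested on simulated data. Precision is limited by the number of arrays. Named genes were every probe set of the members, Sall4, Pou5f1, from each list up to 4 genes with the largest genotype and 2 with the largest feeder difference, and 2 nearest genes per member. Fzd5, Reck, Ctnnb1, Ep300, Id2, Krt18, Krt19, Phlda2, Igf2 and Plac8 were chosen after their values were seen. Members and lists were chosen with earlier results of these data known.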

Additional observations from a re-analysis of the deposited data

How the results depend on the processing

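No result met the rules for a closer look, since groups of 1 array give no outlier or replicate test. No paired analysis was possible because each group holds 1 array and the labels carry no replicate numbers. Leaving out 1 array leaves the difference of the other pair, which the text gives. Under 9 alternatives of the fit, 0 of the members tested passed between genotypes in each. All 6 were tested except under a 60th-percentile filter, where 3 were. By feeders the count of 1 became 0 without the filter, under a 60th-percentile filter (where Plac1, Plet1 and Cited1 were not tested), with no variance trend and with the offset at the median signal. The count of 3 members by the size rule between genotypes became 0 at 3-fold and with the offset at the median signal, and 1 under a 60th-percentile filter (Wnt7b) and with the mean of probe sets (Plac1). The count of 1 by feeders became 0 at 3-fold, under a 60th-percentile filter and with the offset at the median signal. The 60th percentile filter tests fewer genes, and the 3-fold rule asks for a larger ratio. A larger offset draws ratios of weak signals further towards 1. The cause of the other changes was not tested. The feeder difference of Esx1 turned from 0.05 to -0.065 with quantile normalization and -0.020 with median centring, and all other differences of members kept their sign. Over the alternatives the genotype difference of Plac1 ran from 1.19 to 1.89, of Wnt7b from -1.62 to -1.13, of Plet1 from -1.34 to -0.78 and of Cited1 from -1.55 to -0.45. The feeder difference of Plac1 ran from -2.01 to -1.26, of Cited1 from -2.39 to -0.998 and of Plet1 from -1.06 to -0.36. Over all genes, the 4 limma calls between genotypes became 0 without the filter, under a 60th-percentile filter and with no variance trend, 7 with quantile normalization or median centring, and 14 with every probe set. The 595 by feeders became 269, 268 and 183 under the first 3 of these, 384 with the mean of probe sets and 1354 with every probe set. The size rule's 139 genes between genotypes became 58 with the offset at the median signal, 78 under a 60th-percentile filter and 32 at 3-fold, and its 560 by feeders became 354 with that filter, 984 with every probe set and 262 at 3-fold. Without detection calls, signals near the filter could not be told from background.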
